A study of Mus musculus with 9 samples.

Results

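Adam12, Kbtbd11, Tox, Tbc1d16, Steap2, Pgap1 and Arsa are 7 mouse genes whose signal in liver was lower after an adeno-associated virus (AAV) vector or fell in steps from untreated liver to a control vector to a vector carrying a human glucocorticoid receptor. They are 7 of the 16783 genes tested and were chosen by these same array values over all 3 groups, so their differences are given as descriptions and carry no test. Liver (lobe A) of male C57BL/6 mice aged 3 months was measured on 9 single-colour arrays, with 3 arrays in each group. The untreated group held wild-type liver, the AAV-GFP group liver treated with a vector named for green fluorescent protein, and the AAV-hGRB group liver treated with a vector named for the human glucocorticoid receptor β. All 3 groups share strain, sex and age, and no further allele or agent is named. The promoter, dose and time after the vectors were not given in the sources used here, and the delivered sequences were not analysed here.

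The 7 genes belong to no single pathway. The glucocorticoid receptor is a nuclear receptor that controls metabolism and inflammation in liver, and its β isoform has another carboxyl end than the α isoform, which binds hormone. AAV vectors carry genes into hepatocytes, and a vector without the gene of interest shows what the virus itself or its passenger does. Adam12 encodes a membrane metalloproteinase that sheds growth factor ligands and is made by activated stellate cells of the liver. Tox encodes a nuclear HMG-box protein needed for T cell development and T cell exhaustion in mice. Kbtbd11 encodes a kelch-repeat protein of the family that brings substrates to cullin ubiquitin ligases. Tbc1d16 encodes a GTPase-activating protein for RAB4A, a small GTPase of recycling endosomes. Steap2 encodes a membrane reductase of iron and copper. Pgap1 encodes the endoplasmic reticulum enzyme that removes the acyl chain from the inositol of glycosylphosphatidylinositol (GPI) anchors. Arsa encodes arylsulfatase A, the lysosomal enzyme that degrades the sphingolipid sulfatide.

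The array carried 15 probes for the 7 genes, each 60 bases long, and 9 of them passed the filter on dim probes (the scanner software called the probe well above background on each array of 1 group or more). Every gene kept at least 1 probe. Adam12 passed only through the untreated arrays, so its kept probe had to be brighter there. The leading 30 bases of the probe that stands for each gene follow, with a further probe of Kbtbd11 and of Tox, because the results below turn on which probe is read. The sequences and positions are those of the array files (build mm7), and the letters are all in lower case because no part of a probe is singled out.
Adam12 (chr7:130289038-130289097, minus strand): gaaaatcaagttagcactaattacaaaatg
Kbtbd11 (chr8:15007303-15007362, plus strand): gttgggccagctgtttctgggtgtgcagtt
Kbtbd11, further probe (chr8:15003552-15003611, plus strand): ggctgctggccatagtgcatcatgcaaacg
Tox (chr4:6615142-6615201, minus strand): ttaaatggcttgatgtagcagtcatagcaa
Tox, further probe (chr4:6615449-6615508, minus strand): tgcgcactcaaagcagttcttcatttgatt
Tbc1d16 (chr11:119256199-119256258, minus strand): ttgttgtctgagtgaaccaagcacacttgc
Steap2 (chr5:5678176-5678235, minus strand): ttattattacttgtgggtagtccatagttg
Pgap1 (chr1:54708783-54708842, minus strand): tacgaagccagttaatttctgatgacttga
Arsa (chr15:89555513-89555572, minus strand): tgtctggagttaggtgataaactgatcatt

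Levels are log2 signal minus the 75th percentile of the same array, so 0 is that percentile, and a difference of -1 is a halving. They compare arrays for a probe and not a probe with another. The share of gene spots well above background ran from 54.0% to 82.0% per array. All 11 hepatocyte markers on the array (such as Alb and Ttr) were well above background on every array of each group. Their summed linear level, relative to the 75th percentile, was 3015 to 4162 in untreated, 3570 to 4520 in AAV-GFP and 2869 to 3530 in AAV-hGRB liver. For AAV-hGRB minus AAV-GFP all 11 were below 0 (median -0.30, against 0.03 over all genes) and 0 passed. For AAV-hGRB against untreated 1 passed, as lower (0.757% of all genes did). That call was lost when any 1 array other than untreated replicate 2 was left out. It was also lost with quantile normalization and with no filter on dim probes. The 14 endothelial markers were likewise all below 0 for AAV-hGRB minus AAV-GFP (median -0.27), and 0 passed. Below 0 in that comparison were also 9 of 15 stellate cell and fibroblast markers, but 0 of 17 T and NK cell markers. The part of the hepatocyte or endothelial markers in the falls described here was not tested. Over genes, the correlation was 0.973 to 0.988 within a group and 0.95 to 0.989 between groups. The arrays were scanned on 2 days, and day 2 held untreated replicate 2, AAV-GFP replicate 3 and AAV-hGRB replicate 1. They lay on 5 slides, and no untreated array shared a slide with a vector array. Slide and vector therefore cannot be told apart in any difference from untreated or in any share built on one. Only AAV-GFP replicate 3 and AAV-hGRB replicate 1 shared a slide across groups. In whole liver, fewer cells of a type and less RNA per cell cannot be told apart.

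Over all 7 genes, the median log2 difference was -0.97 for AAV-GFP minus untreated, -1.57 for AAV-hGRB minus untreated and -0.61 for AAV-hGRB minus AAV-GFP. The medians over all 16783 genes were 0.04, 0.10 and 0.03. The first 2 differences share the untreated arrays, and the last shares its arrays with both. When arrays were scaled on their median in place of the 75th percentile, the all-gene median moved from 0.10 to -0.25 for AAV-hGRB minus untreated and from 0.03 to -0.33 for AAV-hGRB minus AAV-GFP, and the medians of the 7 genes moved to -1.93 and -0.97.

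**Figure D1:**
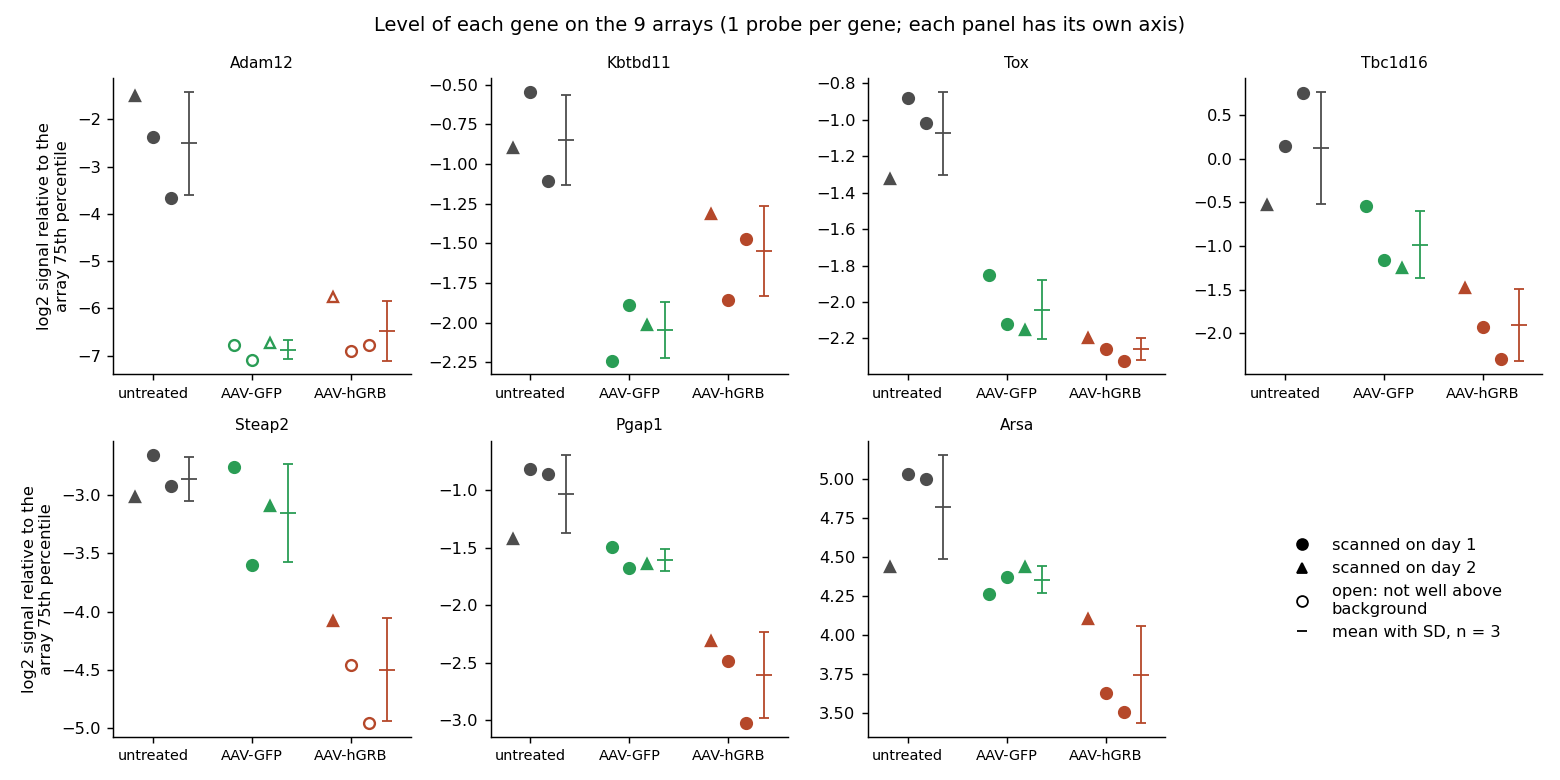
Log2 signal relative to the array's 75th percentile (y axis) on each of the 9 arrays by group (x axis), for the probe that stands for each gene. Circles were scanned on day 1 and triangles on day 2, open symbols were not well above background, and bars give the mean with SD (n = 3). Adam12 is above background in untreated liver only, Kbtbd11 is lowest with AAV-GFP, and Tox, Tbc1d16, Pgap1 and Arsa step down from group to group without overlap.

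In the fit over all genes (limma, Benjamini-Hochberg adjusted p under 0.05), 0 of the 7 genes passed for AAV-GFP against untreated, where 0% of genes passed in either direction. In that comparison 1639 genes had an unadjusted p under 0.05, and other settings gave 0 to 4 genes. Adam12 was among these with scan day as a block, with median scaling, with quantile normalization and without untreated replicate 4. For AAV-hGRB against untreated, 6 of the 7 passed, all lower and all but Kbtbd11, where 0.757% of genes passed as lower and 2.49% as higher. For AAV-hGRB against AAV-GFP, 0 of the 7 passed, where 0.0775% of genes passed as lower and 0.84% as higher; with median scaling Steap2 passed. The genes were selected on these contrasts, so nothing is read from their share of calls. The count of 6 fell to 1 (Adam12) when untreated replicate 3, untreated replicate 4, AAV-hGRB replicate 2 or AAV-hGRB replicate 3 was left out, to 4 without AAV-GFP replicate 2, to 1 with no filter on dim probes or with slide as a random block, and to 0 with normexp background correction. It stayed at 6 within scan day 1.

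For 6 of the 7 genes, Steap2 being the exception, every untreated array lay above all 6 vector arrays, an order found in 4.17% of genes tested. For 4 of the 7, namely Tox, Tbc1d16, Pgap1 and Arsa, the 3 groups formed a full staircase without overlap, found in 0.739% of genes. With median scaling 0 of the 7 kept the staircase, and Adam12, Kbtbd11 and Tox kept untreated above both vector groups. With normexp background correction only Tbc1d16 kept either order. These orders follow from how the genes were chosen. Steap2 follows neither, since its AAV-GFP values overlapped the untreated ones, although its AAV-hGRB arrays lay below every untreated array.

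Adam12 had signal above background in untreated liver only. It was at -1.50, -2.37 and -3.67 on untreated replicates 2, 3 and 4, at -6.78, -7.10 and -6.74 on the AAV-GFP arrays, and at -5.76, -6.90 and -6.77 on the AAV-hGRB arrays. The untreated arrays were all well above background and themselves spread widely (mean -2.51 ± 1.09, SD, n = 3), while none of the 6 vector arrays was well above background. The untreated array that lay nearest to the vector groups, replicate 4, was still above all of them.

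Because the vector arrays were not well above background, a floor took the place of their values. With it, Adam12 came out 4.91-fold lower with AAV-GFP and 5.03-fold lower with AAV-hGRB. On every vector array the floor is the dimmest signal that still counted as well above background, or the Adam12 signal if that was brighter. It belongs to the array and not to the Adam12 probe, so these values are not strict bounds. They also use the untreated mean (SD 1.09), and untreated replicate 4 lay nearer to the floor. The measured group means differed by -4.36 and -3.97 on the log2 scale, and no difference between the vector groups can be given. With normexp background correction, which lifts dim signals by an offset, the measured differences shrank to -0.24 with AAV-GFP and -1.29 with AAV-hGRB. On each scan day the untreated arrays were well above background and the vector arrays were not.

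The other Adam12 probe, at chr7:130291782-130291841, was not well above background on any of the 9 arrays. The signal of Adam12 in untreated liver therefore rests on a single probe. Of 15 markers of stellate cells and fibroblasts, all of them tested, 0 passed in any of the 3 comparisons. Their summed level on a linear scale, relative to the 75th percentile, was 110 to 175 in untreated, 119 to 189 in AAV-GFP and 127 to 169 in AAV-hGRB liver. The ranges overlap in all groups, and 13 of the 15 markers were well above background on all untreated arrays.

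Among 12 tested ADAM metalloproteinases other than Adam12, 0 passed in any comparison. Their median for AAV-hGRB minus untreated was 0.75 against 0.10 over all genes. On all untreated, AAV-GFP and AAV-hGRB arrays 8, 10 and 12 of these genes were well above background. The filter on dim probes thus favoured genes that are higher with AAV-hGRB, and nothing is read from that median. Adam33, a family member, came nearest, at -3.52 ± 0.67 with AAV-hGRB against -5.55 ± 0.75 in untreated liver, where no array was well above background (SD, n = 3; limma adjusted p = 0.0540). Its difference of 2.04 on the log2 scale came from the only kept probe, which passed the filter only through AAV-hGRB. It turned to -0.38 with normexp background correction. With no filter on dim probes, or without AAV-GFP replicate 1, a brighter Adam33 probe stood for the gene and gave 0.87. The probe also changed without untreated replicate 3 (0.66) and without AAV-hGRB replicate 2 (1.25). Those values therefore do not show the effect of leaving out 1 array. Adam11, a member without a working protease site, was at -2.07 ± 0.70 with AAV-hGRB and -0.50 ± 0.20 in untreated liver (adjusted p = 0.0676).

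Of 8 tested substrates and partners of ADAM12, 1 passed, as lower with AAV-hGRB than untreated (0.757% of all genes did). This was Sh3pxd2a, which encodes the podosome scaffold TKS5 that binds ADAM12. It fell by 1.20 on the log2 scale (SE 0.19, limma adjusted p = 0.0174), from 3.38 ± 0.28 to 2.18 ± 0.21 (SD, n = 3), and stood at 2.78 ± 0.07 with AAV-GFP. A separate Sh3pxd2a probe gave a difference of 0.40, in the opposite direction. Without untreated replicate 3 or 4, or without AAV-hGRB replicate 2 or 3, the adjusted p rose to between 0.0722 and 0.0964. The call was also lost with no filter on dim probes (0.0814), with slide as a random block (0.102), with the mean over kept probes (difference -0.40, adjusted p = 0.298) and with normexp background correction (0.617).

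Tox lay lower with both vectors, and most of its fall was reached with AAV-GFP. It was at -1.33, -0.88 and -1.02 in untreated liver, at -1.85, -2.12 and -2.15 with AAV-GFP, and at -2.20, -2.26 and -2.32 with AAV-hGRB. The gap between untreated and AAV-GFP was wide, whereas the highest AAV-hGRB array lay just under the lowest AAV-GFP array. The differences from untreated were -0.97 with AAV-GFP and -1.19 with AAV-hGRB (SE 0.17 each), and AAV-hGRB minus AAV-GFP was -0.22, a little over that error.

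The further Tox probe had the same order of group means. It was at -1.97, -2.11 and -2.36 in untreated liver, at -3.30, -3.49 and -3.55 with AAV-GFP, and at -3.46, -3.89 and -3.64 with AAV-hGRB, so that the vector groups overlapped on this probe. Its differences from untreated were -1.30 and -1.52. A remaining Tox probe was not well above background on any array.

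Some markers of T and NK cells rose with AAV-hGRB. Of 17 tested, 0 passed for AAV-GFP against untreated, 6 rose for AAV-hGRB against untreated (2.49% of all genes did) and 4 rose for AAV-hGRB against AAV-GFP (0.84% of all genes), while 2 of the 17 had a difference below 0 against untreated. The 6 became 3 without untreated replicate 3 or 4, AAV-GFP replicate 2, or AAV-hGRB replicate 1 or 3, 3 also with no filter on dim probes, 9 without untreated replicate 2, 1 with slide as a random block and 0 with normexp background correction. Their summed linear level ran from 3.03 to 3.42 in untreated, from 3.14 to 3.51 in AAV-GFP and from 6.30 to 13.8 in AAV-hGRB liver. This sum overlapped between untreated and AAV-GFP and rose with AAV-hGRB. Tox differed by -0.97 for AAV-GFP minus untreated and by -0.22 for AAV-hGRB minus AAV-GFP. On all untreated arrays 8 of the 17 were well above background, on all AAV-GFP arrays 12, and on all AAV-hGRB arrays all 17. The filter on dim probes thus admitted these markers most readily through AAV-hGRB, where they are high. Nothing is therefore read from the all-gene shares beside their counts. With no filter the 4 called against AAV-GFP became 1. Of 12 Kupffer cell and macrophage markers, 2 rose against untreated (2.49% of all genes did) and 1 against AAV-GFP (0.84% of all genes). Their summed level was 68.6 to 82.8 in untreated, 68.5 to 119 in AAV-GFP and 156 to 230 in AAV-hGRB liver. The 2 became 1 without untreated replicate 3 or 4, AAV-GFP replicate 2 or any AAV-hGRB replicate, and 0 with normexp background correction. The 1 against AAV-GFP was lost with median scaling and with normexp background correction. Of 8 neutrophil and monocyte markers, 1 rose against untreated (2.49% of all genes did). Their summed level was 3.84 to 8.60, 4.04 to 10.8 and 10.2 to 19.95 in the same order of groups. On all untreated, AAV-GFP and AAV-hGRB arrays 5, 6 and 8 of them were well above background, so the same limit holds. That 1 call was lost under the same omissions, with no filter on dim probes and with normexp background correction. Without untreated replicate 2 it became 4. The part of these cells in the Tox values was not tested.

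Of 8 tested genes that act with TOX in exhausted T cells, 0 passed in any comparison, with a median of 0.90 for AAV-hGRB minus untreated. On all untreated, AAV-GFP and AAV-hGRB arrays 5, 6 and 8 of them were well above background. The filter on dim probes thus favoured genes that are higher with AAV-hGRB. Pdcd1, which encodes the inhibitory receptor PD-1, was at -5.43 ± 1.59 in untreated, -4.22 ± 1.71 in AAV-GFP and -0.97 ± 1.13 in AAV-hGRB liver (SD, n = 3; limma adjusted p = 0.0522 against untreated). Havcr2, which encodes the inhibitory receptor TIM-3, was at -4.90 ± 0.93 in untreated and -2.84 ± 0.89 in AAV-hGRB liver (adjusted p = 0.0724). Pdcd1 and Havcr2 were each well above background on 1 untreated, 2 AAV-GFP and 3 AAV-hGRB arrays. Both passed the filter only through AAV-hGRB. Tox4, the only TOX family member other than Tox that was tested, differed by 0.20 (adjusted p = 0.449).

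Kbtbd11 was lowest with the control vector and not with AAV-hGRB. It was at -0.90, -0.55 and -1.11 in untreated liver, at -2.24, -1.89 and -2.01 with AAV-GFP, and at -1.31, -1.86 and -1.47 with AAV-hGRB. All 3 AAV-hGRB arrays lay between the groups, above every AAV-GFP array and below every untreated one, with AAV-hGRB replicate 2 only just above AAV-GFP replicate 2. The differences were -1.20 for AAV-GFP minus untreated, -0.70 for AAV-hGRB minus untreated and 0.50 for AAV-hGRB minus AAV-GFP (SE 0.22 each).

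The further Kbtbd11 probe placed the AAV-hGRB arrays at the untreated level. It was at -2.91, -2.20 and -2.97 in untreated liver, at -4.10, -3.76 and -4.84 with AAV-GFP, and at -2.03, -3.38 and -2.71 with AAV-hGRB. On it the AAV-GFP arrays were again below all others, AAV-GFP replicate 3 being not well above background, while untreated and AAV-hGRB overlapped. The differences were -1.54 for AAV-GFP minus untreated, -0.01 for AAV-hGRB minus untreated and 1.52 for AAV-hGRB minus AAV-GFP. With normexp background correction AAV-hGRB minus AAV-GFP of the brighter probe turned to -0.28. The probes thus share the drop with AAV-GFP and disagree on whether any of it was left with AAV-hGRB. A remaining probe was dim, with 0, 1 and 2 arrays well above background in the 3 groups.

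Of 30 tested BTB-kelch adaptors and cullin 3 itself, 1 passed, as higher with AAV-hGRB than untreated (2.49% of all genes did). In the same comparison 14 had a difference below 0. The gene that passed is named next, and nothing is read from the count. This was Kbtbd8, an adaptor of cullin 3, at -3.61 ± 0.14 with AAV-hGRB against -4.89 ± 0.53 in untreated liver (SD, n = 3; difference 1.28, SE 0.28, limma adjusted p = 0.0482). It was well above background on 1 untreated, 2 AAV-GFP and 3 AAV-hGRB arrays, so it passed the filter only through AAV-hGRB. With normexp background correction Kbtbd8 had a difference of -0.41, in the opposite direction. Under the other alternatives its adjusted p was above 0.05 in most cases, and leaving out any 1 of the 9 arrays ended the call, except untreated replicate 2.

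**Figure D2:**
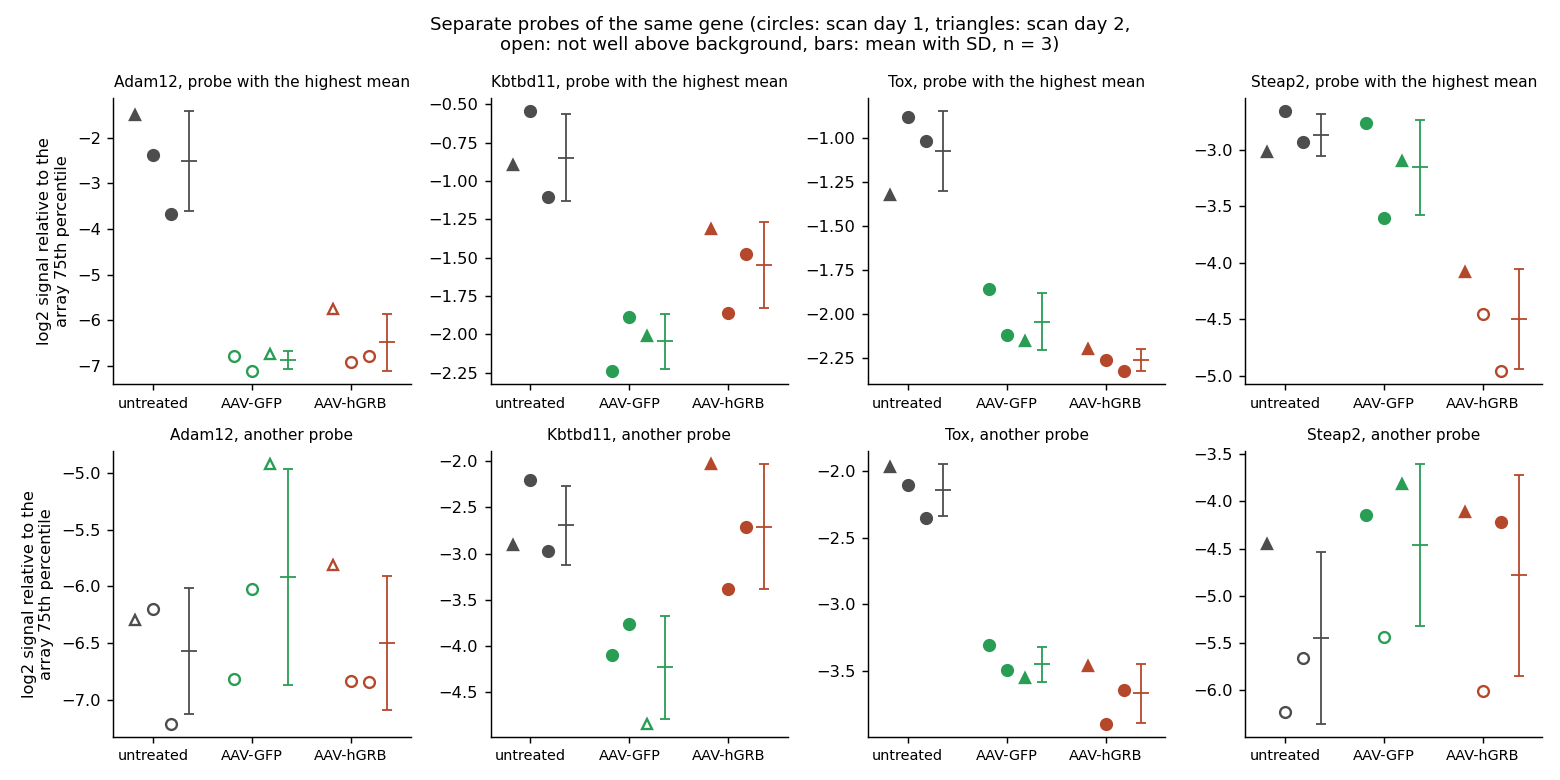
Log2 signal relative to the array's 75th percentile by group for the probe that stands for Adam12, Kbtbd11, Tox and Steap2 (top) and for another probe of the same gene (bottom); symbols as in the plot of levels, bars give the mean with SD (n = 3). Both Tox probes fall with either vector, both Kbtbd11 probes are lowest with AAV-GFP, and the bottom Adam12 probe is not above background on any array.

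Tbc1d16 stepped down with each group. It was at -0.53, 0.14 and 0.75 in untreated liver, at -0.55, -1.16 and -1.26 with AAV-GFP, and at -1.48, -1.93 and -2.30 with AAV-hGRB. Neighbouring groups touched: untreated replicate 2 lay 0.02 above AAV-GFP replicate 1, a gap far under the SD of 0.64 among untreated arrays. The differences from untreated were -1.11 with AAV-GFP and -2.02 with AAV-hGRB (SE 0.36 each), and AAV-hGRB minus AAV-GFP was -0.92. A single probe stands for the gene.

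On scan day 1 the difference of Tbc1d16 for AAV-hGRB minus untreated was -2.56 and on day 2, with 1 array per group, it was -0.95. Of 33 other tested TBC-domain GTPase-activating proteins, 0 passed in any comparison, and 21 had a difference below 0 for AAV-hGRB minus untreated (median -0.13). Tbc1d10c, a regulator of calcineurin and Ras signalling in lymphocytes, was at -1.57 ± 0.29 with AAV-hGRB and -2.42 ± 0.19 in untreated liver (SD, n = 3; limma adjusted p = 0.0598). Sgsm1, a small G protein signalling modulator, was at -1.61 ± 0.41 and -0.90 ± 0.23 (adjusted p = 0.116). A separate Sgsm1 probe gave a difference of 0.18, in the opposite direction.

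Of 12 tested genes of RAB4 and the recycling endosome, 0 passed in any comparison, with a median of -0.18 for AAV-hGRB minus untreated. Rab11b, a GTPase of recycling endosomes, was at 1.99 ± 0.35 with AAV-hGRB and 3.04 ± 0.32 in untreated liver (SD, n = 3; limma adjusted p = 0.0863). Rab5a, a GTPase of early endosomes, was at 3.63 ± 0.15 and 3.25 ± 0.28 (adjusted p = 0.248).

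Pgap1 stepped down in the same order. It was at -1.43, -0.82 and -0.86 in untreated liver, at -1.50, -1.68 and -1.65 with AAV-GFP, and at -2.31, -2.48 and -3.03 with AAV-hGRB. Untreated replicate 2 lay close to the AAV-GFP arrays, while the AAV-hGRB arrays were well apart from them. The differences from untreated were -0.58 with AAV-GFP and -1.57 with AAV-hGRB (SE 0.24 each), and AAV-hGRB minus AAV-GFP was -0.999.

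The probe that stands for Pgap1 carries the older name D230012E17Rik in the files. The gene's other probes, at chr1:54787586-54787645 and chr1:54788761-54788820, were at background throughout, apart from the latter on 1 AAV-GFP array. Of 28 other tested genes of GPI anchor synthesis and remodelling, 0 passed in any comparison, and 6 had a difference below 0 for AAV-hGRB minus untreated (median 0.26, against 0.10 over all genes). Pigh, a subunit of the enzyme that starts GPI synthesis, was at -0.85 ± 0.41 with AAV-hGRB and -1.73 ± 0.32 in untreated liver (SD, n = 3; limma adjusted p = 0.103). Pgap2, which acts in the remodelling of the anchor's lipid, was at 2.57 ± 0.13 and 2.14 ± 0.14 (adjusted p = 0.146).

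Arsa also stepped down from group to group. It was at 4.44, 5.03 and 4.998 in untreated liver, at 4.26, 4.37 and 4.43 with AAV-GFP, and at 4.10, 3.63 and 3.51 with AAV-hGRB. Untreated replicate 2 lay 0.01 above AAV-GFP replicate 3, so the step between these groups has no overlap only by that margin. The differences from untreated were -0.47 with AAV-GFP and -1.08 with AAV-hGRB (SE 0.23 each), and AAV-hGRB minus AAV-GFP was -0.61. On scan day 2 the same differences were -0.01, -0.34 and -0.33, against -0.70, -1.45 and -0.75 on day 1.

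Of 12 other tested lysosomal sulfatases and genes of the same family, 1 passed, as lower with AAV-hGRB than untreated (0.757% of all genes did). This was Ids, which encodes iduronate 2-sulfatase, a lysosomal enzyme of glycosaminoglycan breakdown. It fell by 1.14 on the log2 scale (SE 0.14, limma adjusted p = 0.00666), from 1.88 ± 0.10 to 0.74 ± 0.06, and stood at 1.46 ± 0.04 with AAV-GFP (SD, n = 3). Its 3 groups formed a full staircase too, and its differences were -1.19 on scan day 1 and -1.03 on day 2. Leaving out untreated replicate 3 brought its adjusted p to 0.0501, and the other 8 omissions kept the call. With normexp background correction the difference was -0.71 (adjusted p = 0.432).

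Of 18 tested genes of sphingolipid turnover around sulfatide, 0 passed in any comparison, with a median of 0.13 for AAV-hGRB minus untreated. Ctsd, the lysosomal protease cathepsin D, was at 6.33 ± 0.08 with AAV-hGRB and 5.73 ± 0.10 in untreated liver (SD, n = 3; limma adjusted p = 0.0746).

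Steap2 differed little between untreated liver and the control vector and lay low with AAV-hGRB. It was at -3.02, -2.66 and -2.93 in untreated liver, at -2.77, -3.60 and -3.10 with AAV-GFP, and at -4.08, -4.45 and -4.96 with AAV-hGRB. The first 2 groups overlapped and all AAV-hGRB arrays lay below them, although AAV-hGRB replicates 2 and 3 were not well above background. The differences were -0.29 for AAV-GFP minus untreated, -1.63 for AAV-hGRB minus untreated and -1.34 for AAV-hGRB minus AAV-GFP (SE 0.28 each). With normexp background correction the AAV-GFP difference was 0.16.

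The other Steap2 probe, at chr5:5688796-5688855, was well above background on 1, 2 and 2 of the 3 arrays per group and did not show the fall. Its means were -5.45 ± 0.91 in untreated, -4.46 ± 0.86 in AAV-GFP and -4.78 ± 1.07 in AAV-hGRB liver (SD, n = 3), with all groups overlapping. Of the 3 other STEAP metalloreductases, all tested, 0 passed in any comparison. Steap3, the ferrireductase of transferrin endosomes, differed by -0.35 for AAV-hGRB minus untreated (limma adjusted p = 0.282) and Steap1 by -0.40 (adjusted p = 0.307). Of 23 tested genes of iron and copper handling, 0 passed, with a median of -0.02. Slc40a1, the iron exporter ferroportin, was at 4.72 ± 0.14 with AAV-hGRB and 3.90 ± 0.21 in untreated liver (SD, n = 3; adjusted p = 0.0821), and Aco1, the cytosolic aconitase that doubles as an iron sensor, was at 4.50 ± 0.13 and 5.14 ± 0.35 (adjusted p = 0.100). A separate Aco1 probe gave a difference of only -0.03.

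**Figure D3:**
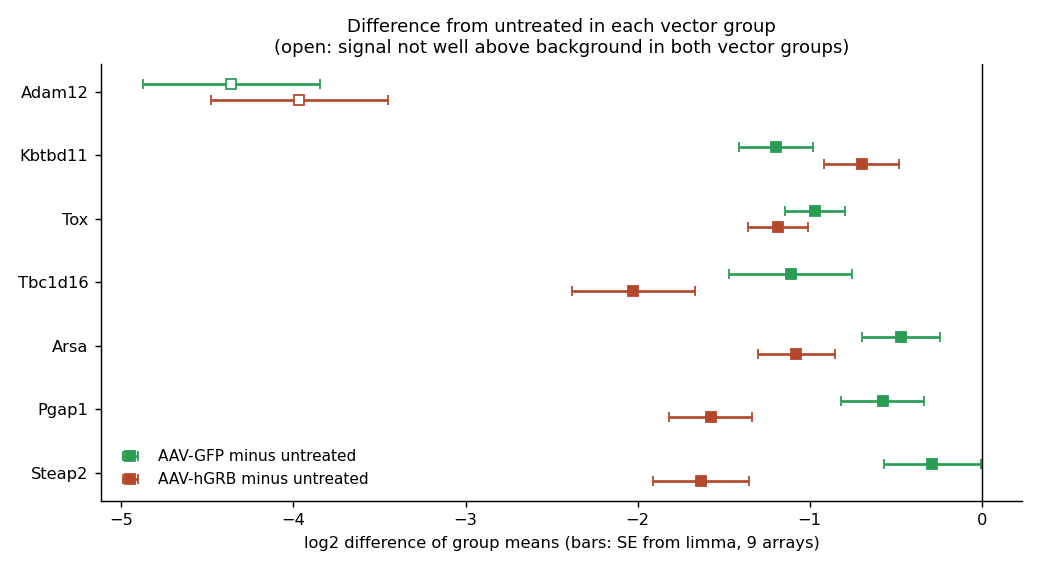
Log2 difference of group means (x axis) from untreated for AAV-GFP and AAV-hGRB, by gene (y axis), with the SE from limma over 9 arrays. Open squares mark Adam12, whose vector arrays are not well above background, so its measured differences are not fold changes. Of the genes with measured signal, Kbtbd11 is the one whose AAV-GFP value lies further from 0 than its AAV-hGRB value.

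The share of each fall already present with AAV-GFP is the untreated mean minus the AAV-GFP mean, divided by the untreated mean minus the AAV-hGRB mean, both on the log2 scale. It is above 100% where AAV-GFP lies lower than AAV-hGRB. Adam12 has no share, because neither vector group was measured above background. The error given is a propagated SD over the 3 arrays of each group, and the untreated arrays enter both parts of the ratio.

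Kbtbd11 had the highest share, 171% ± 78.9, and Tox came next at 81.6% ± 14.9. Tbc1d16 had 54.8% ± 26.3, Arsa 43.4% ± 23.0, Pgap1 36.5% ± 17.4 and Steap2 17.6% ± 27.8. The Steap2 value is not exact, because 1 of its 3 AAV-hGRB arrays was well above background and the size of its fall is uncertain. The gaps from Kbtbd11 to Tox and from Tox to Tbc1d16 were a little over the larger of the SDs, and the gaps between the later neighbours were within it; none was tested. The further Tox probe gave 85.8%, near the value of its partner probe. The further Kbtbd11 probe gives no usable share, since its AAV-hGRB mean equals the untreated mean within the spread.

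Leaving out 1 array at a time moved the share from 146% to 220% for Kbtbd11, from 76.9% to 89.6% for Tox, from 46.4% to 65.7% for Tbc1d16, from 37.3% to 52.0% for Arsa, from 31.8% to 43.6% for Pgap1 and from 4.01% to 29.5% for Steap2. Kbtbd11, Tox and Steap2 kept their places in the order under each of these 9 omissions, as their ranges do not meet those of their neighbours. The ranges of Tbc1d16, Arsa and Pgap1 overlap in turn. The low end for Steap2 came without AAV-GFP replicate 2, its lowest AAV-GFP array, and its high end without AAV-GFP replicate 1.

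The choice of probe, the scaling and the background correction moved these shares further. With the mean over kept probes Kbtbd11 had 384%, since its further probe differed by only -0.01 between AAV-hGRB and untreated. Tox then had 84.0%, and the remaining genes, with 1 kept probe each, stayed as they were. With median scaling the shares were 113% for Kbtbd11, 62.3% for Tox, 46.2% for Tbc1d16, 32.1% for Arsa, 29.4% for Pgap1 and 14.0% for Steap2, all lower and in the same order. With quantile normalization Kbtbd11 had 150%, Tox 69.2%, Arsa 53.0%, Tbc1d16 51.2%, Pgap1 31.0% and Steap2 11.9%. With normexp background correction the order was lost: Arsa had 95.3%, Kbtbd11 61.2%, Tbc1d16 38.3%, Tox 31.0%, Pgap1 17.7% and Steap2 -15.8%. Once local backgrounds over 2 times the array's median had been replaced before normexp, an alternative chosen after seeing the data, the order returned, with 151% for Kbtbd11, 74.9% for Tox, 55.2% for Tbc1d16, 46.6% for Arsa, 40.2% for Pgap1 and 8.67% for Steap2.

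The scan days gave less even shares. For Arsa the share was 48.3% on day 1 and 1.73% on day 2, for Pgap1 39.2% and 24.9%, and for Steap2 20.4% and 7.64%. For Kbtbd11 it was 147% and 269%, for Tox 77.4% and 94.6%, and for Tbc1d16 50.8% and 76.6%. Day 2 has 1 array per group, so its values have no replicate spread. Between AAV-hGRB and untreated, the difference was smaller in size on day 2 than on day 1 for 6 of the 7 genes, Adam12, not above background with the vectors, being the exception. Untreated replicate 2, the only untreated array of day 2, was the lowest untreated array for Tox, Tbc1d16, Steap2, Pgap1 and Arsa, and the highest for Adam12. Scan day and that single liver sample cannot be told apart.

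**Figure D4:**
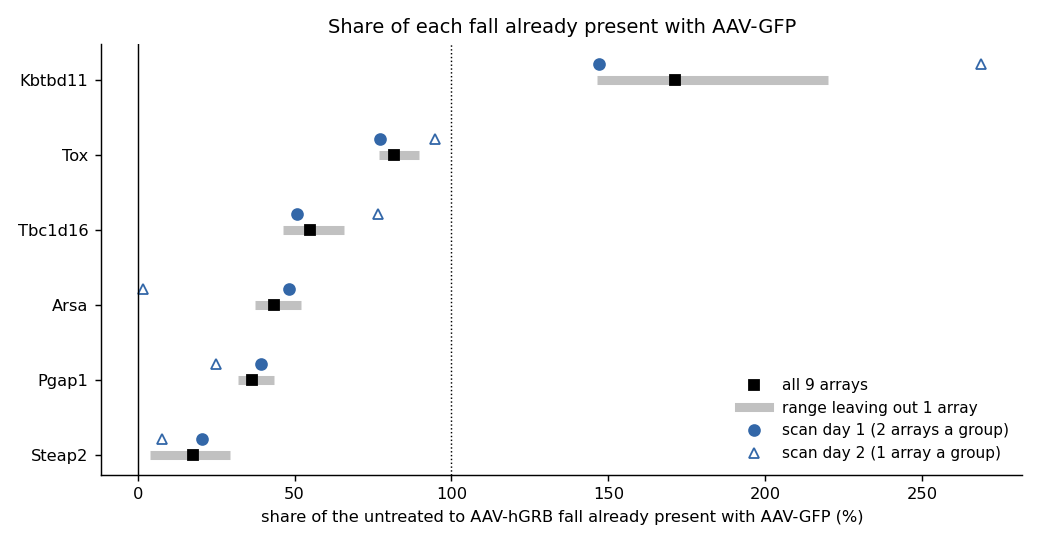
Share of the fall from untreated to AAV-hGRB that was already present with AAV-GFP (x axis, percent) for 6 genes (y axis). Black squares use all 9 arrays, grey bars span the values with 1 array left out, blue circles are scan day 1 and open triangles scan day 2. Kbtbd11 lies beyond 100%, Tox near it, Steap2 nearest to 0, and Arsa drops from 48.3% on day 1 to 1.73% on day 2.

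Over the 6 genes the median share was 49.1%. Of the 127 genes that were lower with AAV-hGRB than untreated in the limma fit, 2, Adam12 among them, were not well above background in a vector group and were left out here. Over the other 125 the median share was 43.8%, with quartiles of 30.4% and 57.8%. Of these 125 genes, 52 formed the full staircase, 79 had untreated above both vector groups, 1 had a share over 100% and 3 had a share below 0. Kbtbd11 and Tox lay above the upper quartile, Steap2 below the lower one, and Tbc1d16, Arsa and Pgap1 between them. The 125 include 5 of the 6 genes with a share, so the sets are not separate.

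The genes also differed in how closely they followed each other over the 9 arrays. Pearson's r was highest between Pgap1 and Arsa (0.967), followed by Tbc1d16 with Pgap1 (0.951) and Pgap1 with Steap2 (0.947). It was lowest between Kbtbd11 and Steap2 (0.219). All pairs share the same 9 arrays, groups and scan days, and genes selected to fall in the same groups will correlate, so these values are descriptive.

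By the same measure, the genes most like Pgap1 were Kif1c (0.991), Adssl1 (0.988) and Dennd11 (0.988), and those most like Arsa were Tns1 (0.984), Pdzk1 (0.984) and Adgra3 (0.983). Tbc1d16 was followed most closely by Pabpc4 (0.989), Lzts3 (0.988) and Ogfrl1 (0.987), and Tox by Znhit6 (0.976), Phldb2 (0.973) and Rnf145 (0.963). The nearest to Steap2 were Adssl1 (0.974), which is also near Pgap1, Pbld1 (0.971) and Fras1 (0.962). Of the 3 AAV-hGRB arrays, Fras1 was well above background on 0 and Steap2 on 1, so their order there carries little information. Kbtbd11 and Adam12 had few close companions, with 6 and 3 genes above 0.9 compared with 537 for Tbc1d16. For Kbtbd11 these were led by Gng8 (0.940), Spata20 (0.929) and Ptpre (0.916), and for Adam12 by Cpne2 (0.930), Heyl (0.922) and Myohd1 (0.920). The order of the vector arrays carries no information for Adam12, since all 6 are below background.

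Promoter windows of 300 bases, from RefSeq on build GRCm38.p6, were matched for 3 of the genes (Pgap1, Steap2 with 3 windows, and Arsa). Those of Arsa and Pgap1, the most alike pair over the arrays, are shown here because these genes moved together. Capitals mark the E-box CACGTG in Arsa and the GC box GGGCGG, on either strand, in Pgap1.
Arsa (chr15:89477375-89477674, minus strand): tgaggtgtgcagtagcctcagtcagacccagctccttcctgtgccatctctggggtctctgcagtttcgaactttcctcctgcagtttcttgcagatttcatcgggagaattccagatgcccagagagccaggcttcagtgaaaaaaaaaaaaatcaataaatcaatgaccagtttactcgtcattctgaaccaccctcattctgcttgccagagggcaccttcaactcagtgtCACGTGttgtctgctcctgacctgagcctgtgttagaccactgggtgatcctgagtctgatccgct
Pgap1 (chr1:54557635-54557934, minus strand): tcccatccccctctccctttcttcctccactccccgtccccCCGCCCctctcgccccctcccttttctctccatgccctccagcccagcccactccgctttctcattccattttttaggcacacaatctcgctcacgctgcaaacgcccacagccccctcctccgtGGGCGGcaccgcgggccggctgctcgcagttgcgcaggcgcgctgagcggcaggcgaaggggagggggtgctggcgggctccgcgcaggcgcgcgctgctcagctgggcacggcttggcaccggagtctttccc

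Both strands were searched for CACGTG, for the glucocorticoid receptor half-site TGTTCT, and for GGGCGG. The E-box was found once, in Arsa at position -16 from the start site, and is present in 7.15% of the 32851 promoter windows in the table. TGTTCT, present in 18.97% of windows, was in none of the 5 windows of the 3 genes. GGGCGG, present in 35.7% of windows, occurred 2 times in Pgap1 and was also in 2 of the 3 Steap2 windows. These 2 Steap2 windows overlap, and 1 match lies in both of them. Arsa and Pgap1 thus shared none of the 3 letter strings within these windows.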

How the data were processed

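Per the file headers, the deposited array files gave linear Cy3 spot intensity, corrected by the scanner software for background and spatial trend but not scaled across arrays. Per the submitters' processing notes this was Agilent Feature Extraction 9.5. Per the labels' protocols, 500 ng of total RNA was labelled. The deposited series table held the same intensity values. Control spots and outlier spots were left out, spots of the same probe were averaged, and each array's 75th percentile was subtracted after log2. Of 41174 probes, 24261 passed the filter on dim probes and were kept. A gene with several kept probes was read from the brightest on average, which gave 16783 genes. Probes were named through a RefSeq table for GRCm38.p6 (22951 by accession, 6659 by symbol, 3109 by older symbol, 294 by gene identifier), and 8161 kept the name in the files. The number of arrays and the signal over background limit the precision.

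Groups and replicate numbers came from the labels, which do not say that replicates are separate animals, so p-values measure the spread between these samples. limma 3.58.1 (R 4.3.3) compared the groups over all 9 arrays (6 residual degrees of freedom, two-sided, Benjamini-Hochberg at 0.05 over all genes), and the code was tested on simulated data. The genes reported and the gene lists were chosen with earlier results of these data known. Named genes are the 7 genes, their 3 most correlated genes each (names that are only identifiers passed over), and per list up to 4 genes past the threshold or else the 2 of smallest p for AAV-hGRB against untreated. Of the genes this rule took, 1 is not reported here. The alternatives were other scalings and background corrections, no filter on dim probes, the mean over probes, the series table, leaving out each array, and scan day, slide or replicate number as blocks. The replicate numbers are not stated to pair samples.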

Additional observations from a re-analysis of the deposited data

How the results depend on the processing

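The median share of 49.1% stayed between 34.6% and 56.5% over all alternatives (42.4% to 56.5% leaving out 1 array). Of the 7 genes' differences from untreated, all kept their sign except Steap2 with AAV-GFP under normexp background correction (0.16). The causes of the following moves were not tested. The counts of genes past the threshold for AAV-GFP against untreated (0), AAV-hGRB against untreated (545) and AAV-hGRB against AAV-GFP (154) became 4, 589 and 104 with median scaling, 1, 411 and 103 with quantile normalization, 0, 49 and 17 with normexp, 0, 84 and 29 with no filter, 1, 4754 and 3 on scan day 1 alone, 1, 1214 and 254 with scan day as a block, and 0, 59 and 74 with slide as a random block. Slide as a fixed block, possible only for AAV-hGRB against AAV-GFP, gave 0. Normexp after replacing bright local backgrounds, chosen after seeing the data, gave 0, 744 and 146. Leaving out 1 array gave 0 to 3, 95 to 1898 (the highest without untreated replicate 2, the lowest without AAV-hGRB replicate 3) and 33 to 168. The share of higher calls for AAV-hGRB against untreated was 76.7%, and 56.4% with median scaling, 63.6% with bright backgrounds replaced and 100% with normexp. With the replicate number as a block the counts were 0, 1 and 2. Same-numbered arrays correlated at -0.32 to 0.24 in their deviations from the group means. Most of these pairs also differed in scan day, so the correlations cannot show whether such arrays are paired. The 124 staircase genes became 27 with median scaling, 56 with normexp, 1582 on day 1, 2299 on day 2 and 130 to 481 leaving out 1 array, where fewer arrays make an order easier to meet. The 700 genes with untreated above both groups became 168, 145, 3040, 4530 and 747 to 2446. The 7 genes' median for AAV-GFP minus untreated (-0.97) was -0.29 with normexp, -0.61 with bright backgrounds replaced and -1.09 to -0.79 leaving out 1 array. That for AAV-hGRB minus untreated (-1.57) was -1.93 with median scaling, -1.01 with normexp, -1.08 with bright backgrounds replaced, -1.91 on day 1, -0.89 on day 2 and -1.72 to -1.36 leaving out 1 array. That for AAV-hGRB minus AAV-GFP (-0.61) was -0.97 with median scaling, -1.01 with normexp, -0.22 on day 2 and with slide as a fixed block (the same array pair), and -0.79 to -0.49 leaving out 1 array. Among list genes, AAV-hGRB minus untreated turned negative with normexp for Adam33 (-0.38), Kbtbd8 (-0.41), Havcr2 (-0.13) and Tbc1d10c (-0.071), and with median scaling for Tox4 (-0.16).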
